A study of Rattus norvegicus with 48 samples.

Results

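Of the 143 miRNAs in the deposited table of rat liver, 2 are described here across all 16 groups: rno-miR-181a and rno-miR-139-5p. They were selected on their lower levels in regenerating liver after 70% partial hepatectomy (PHx), so their differences from 0 h are given as a description and carry no test. What the choice did not use is tested, namely the diet, the miR-21 inhibitor, the saline injection, and whether diet or inhibitor altered the difference over time.

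A mature miRNA guides the silencing complex to messenger RNAs through its seed, bases 2 to 8, and the targets are repressed or degraded. The miR-181 family is best known from lymphocytes, where miR-181a tunes the strength of antigen receptor signaling, and it is also expressed in liver. miR-139 is encoded in an intron of Pde2a, a phosphodiesterase gene, and its 5p arm is known as a brake on growth that is often reduced in liver tumors. Removal of part of the liver drives the remaining cells into the cell cycle, and the organ regains its mass within days in rodents.

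The animals were male Sprague-Dawley rats, aged 8 to 14 weeks, pair-fed for 6 to 8 weeks a liquid diet in which 36% of calories came from ethanol (EtOH) or from maltose-dextran (CHO). Untreated animals of both diets were collected at 0, 6, 24, and 72 h after PHx, with 0 h being before surgery. Animals given saline, or AM21, a locked nucleic acid oligonucleotide antisense to miR-21 at 7.5 mg/kg, were collected at 0 and 24 h, and the first injection came 72 h before surgery, with another right after it. Each of the 16 groups held 3 animals, 48 in all, and all samples were whole liver. Levels are log2 CPM, CPM being counts scaled to a common library size, from the NanoString nCounter, an assay that counts barcoded probes without amplification.

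The total count of an animal ran from 58168 to 267582, and miR-122, the defining miRNA of hepatocytes, took 42.1% to 68.8% of it. At these depths rno-miR-181a gave 292 to 973 counts, and rno-miR-139-5p gave 57 to 151. Counting error alone, taken as Poisson, amounts to 0.06 and 0.15 on the log2 scale at their median counts of 573 and 88, against within-group SDs of 0.23 and 0.20. Counting error was thus a larger part of the spread for rno-miR-139-5p. The background counts of the assay were not analysed here. The inhibited miRNA, rno-miR-21, gave 15 to 32 counts in the AM21 animals and at least 120 in the others. That lowest count was in the EtOH-fed saline group at 0 h, whose animals gave 448, 120, and 3469 counts. The SD of this group was 2.27 in log2 CPM. Untreated EtOH-fed animals at 0 h gave 1602 to 6710 counts. The cause of the low counts was not tested, and these saline animals were kept in the AM21 and saline comparisons at 0 h. They were also kept in the diet comparisons that include saline animals at 0 h. The 24 h differences that start from this group, and the change of the AM21 effect over time, include them too.

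The mature sequences are shown because the seeds set the pair apart from each other and join rno-miR-181a to rno-miR-181c, the one other probe of its family in the table. They are taken from RefSeq on the GRCr8 build, 5′ to 3′, with the seed in capitals.
rno-miR-181a-5p: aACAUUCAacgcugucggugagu
rno-miR-181c-5p: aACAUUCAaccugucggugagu
rno-miR-139-5p: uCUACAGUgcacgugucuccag
All 4 rat 5p arms of the miR-181 family (a, b, c, and d) share the seed ACAUUCA, whereas miR-139-5p was the only mature rat miRNA in RefSeq with the seed CUACAGU. The probe names rno-miR-181a and rno-miR-181c carry no arm, and the 5p arm is assumed for the printed sequences. The 23 bases of miR-181a-5p and the 22 of miR-181c-5p differ by 1 added base at position 11, and crossing of signal between those probes was not tested. The miR-181b and miR-181d probes and the 3p arm of miR-139 were not analysed here.

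The same mature miR-181a-5p is encoded by Mir181a2 at chr3:43025601-43025623 and by Mir181a-1 at chr13:52037081-52037103, both on the plus strand, so the probe reads the sum of both genes. Mir181a2 lies within the spans of Nr6a1, a nuclear receptor gene, and of a long noncoding RNA, LOC120101539. Mir181a-1 lies within that of another long noncoding RNA, LOC108352541. The strands of these spanning genes were not compared. The miR-139-5p arm is at chr1:165290865-165290886 on the plus strand within Pde2a. The miR-181c-5p arm is at chr19:40888314-40888335, also on the plus strand, with no annotated gene around its hairpin. Levels of the spanning genes were not measured.

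In untreated CHO-fed animals, rno-miR-181a was highest at 6 h and lowest at 72 h. Its log2 CPM was 12.21, 12.63, and 12.30 at 0 h and 12.62, 12.86, and 12.64 at 6 h. At 24 h it was 11.75, 11.66, and 11.65, and at 72 h it was 11.42, 11.90, and 11.25. Every animal at 24 and 72 h lay below every animal at 0 h, which held for 6.99% of the 143 miRNAs at 24 h and for 18.2% at 72 h. As the choice of the members rests on these values, nothing is read from those shares. Relative to 0 h, the log2 difference at 6, 24, and 72 h was 0.33, -0.69, and -0.86 (standard error, SE, 0.20), where the median of all 143 miRNAs was 0.04, 0.05, and 0.00.

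In untreated EtOH-fed animals the order of the time points was the same at a lower level. rno-miR-181a measured 11.69, 12.44, and 11.66 log2 CPM at 0 h and 12.14, 12.47, and 12.32 at 6 h. It then measured 11.29, 11.62, and 11.36 at 24 h and 10.83, 11.02, and 11.10 at 72 h. Again no animal at 24 or 72 h reached the lowest of its group at 0 h, as was so for 12.6% and 16.1% of the 143 miRNAs. The log2 differences from 0 h were 0.38, -0.51, and -0.95 at 6, 24, and 72 h with an SE of 0.20. The last was the lowest of all 143 in this diet, a place that the choice of the members favors. Replicate 2 at 0 h stood 0.51 above its group mean, the largest distance of any animal for this miRNA, and without it the differences were 0.64, -0.25, and -0.69.

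rno-miR-139-5p showed the same order of time points in CHO-fed animals, with a lower count behind each value. Its log2 CPM was 9.54, 9.82, and 9.18 at 0 h and 9.69, 9.99, and 9.67 at 6 h. At 24 h it was 8.93, 9.32, and 8.72, and at 72 h it was 8.86, 8.95, and 8.84. Replicate 2 at 24 h lay above the lowest 0 h animal, so the groups overlapped at 24 h but not at 72 h. At 72 h, 18.2% of the 143 miRNAs lay wholly below 0 h. Relative to 0 h, the log2 differences at 6, 24, and 72 h were 0.27, -0.53, and -0.63 (SE 0.17).

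In EtOH-fed untreated animals rno-miR-139-5p measured 9.33, 9.63, and 9.35 log2 CPM at 0 h and 9.26, 9.87, and 9.62 at 6 h. The values were 8.74, 9.004, and 8.99 at 24 h and 8.50, 8.59, and 8.87 at 72 h. Both later groups lay wholly below 0 h, as was so for 12.6% of the 143 miRNAs at 24 h and 16.1% at 72 h. The 6 h animals spread around the 0 h level. The log2 differences were 0.15, -0.52, and -0.78 at 6, 24, and 72 h with an SE of 0.17. The value at 6 h ranged from 0.004 to 0.31 when single animals were left out, and that of CHO-fed animals from 0.10 to 0.42. In both diets and for both miRNAs, all animals at 72 h also lay below all animals at 6 h, a pattern that 21.7% of the 143 miRNAs had in either diet. The plot of the untreated time course shows these values.

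**Figure D1:**
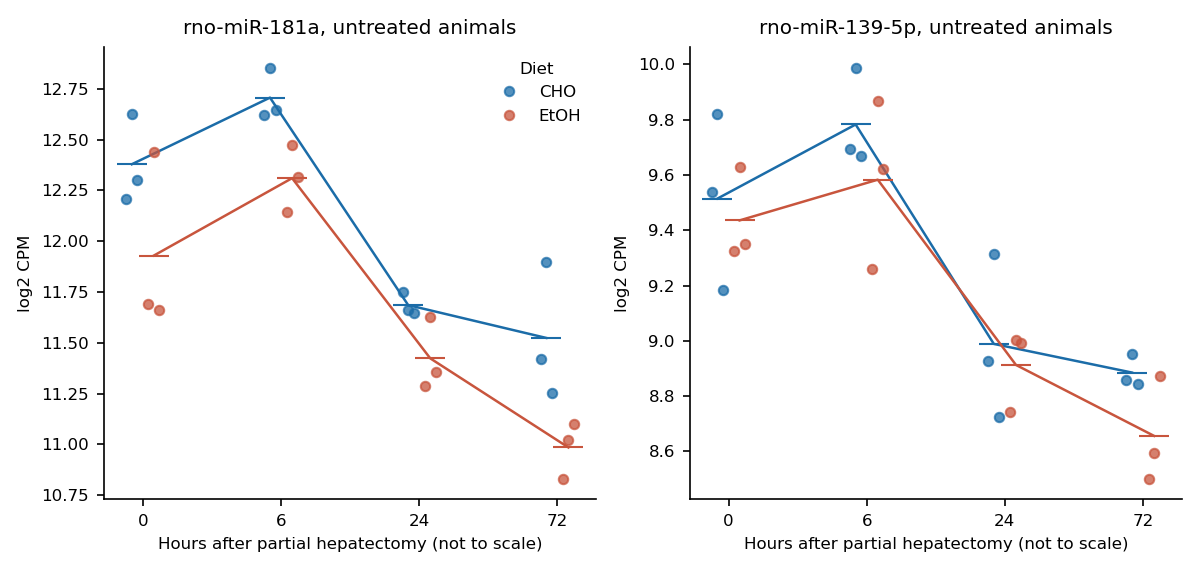
Level in log2 CPM (vertical axes) of rno-miR-181a (left) and rno-miR-139-5p (right) in the untreated animals at 0, 6, 24, and 72 h after PHx. Points are animals, bars are means of 3 animals, and lines join the means of each diet. Both miRNAs have their highest mean at 6 h and their lowest at 72 h. The EtOH means lie below the CHO means at every time for both, by less for rno-miR-139-5p.

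Averaged over both diets, rno-miR-181a differed from 0 h by -0.90 (SE 0.14) and rno-miR-139-5p by -0.70 (SE 0.12) at 72 h on the log2 scale, which is 0.54 and 0.61 times the 0 h level. They ranked 3 and 8 from the lowest of 143 differences, whose median was 0.03. As the members were chosen for lower levels after PHx, nothing is read from these ranks. All animals at 72 h were of set 4 and none at 0 h were, so time and set are confounded here. The tissue was whole liver, so fewer cells of a type and less RNA per cell cannot be told apart in any of these values.

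Total count moved with both levels. The 6 animals at 72 h had totals of 163533 to 267582, against 58168 to 240355 in the 18 animals at 0 h and 87009 to 196972 in the 6 at 6 h. Within groups too, animals with a higher total had a lower level. Deviations from the group mean correlated with those of the log10 total count at r = -0.50 for rno-miR-181a and r = -0.75 for rno-miR-139-5p over 48 animals, where the median of the 143 miRNAs was -0.002 and the range -0.75 to 0.74. rno-miR-139-5p had the lowest of those 143 correlations and rno-miR-181a ranked 13 from the lowest. With the log10 total count in the model, the differences at 72 h were -0.62 and -0.34. In CHO-fed animals the difference at 72 h was then -0.50 for rno-miR-181a and -0.18 for rno-miR-139-5p. Beyond that model the part of total count in these differences was not tested.

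**Figure D2:**
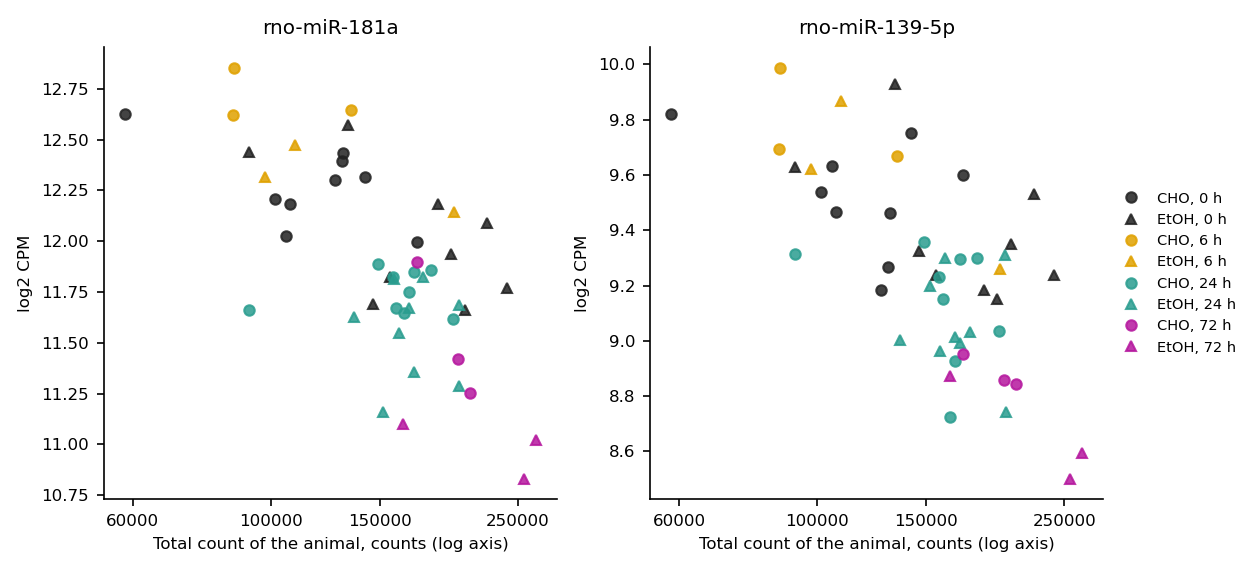
Level in log2 CPM (vertical axes) of rno-miR-181a (left) and rno-miR-139-5p (right) against the total count of the animal (log axis), for 48 animals marked by diet and time after PHx. Both levels are lower in animals with a higher total count, and the 6 animals at 72 h, with totals of 163533 to 267582, include the lowest level of each miRNA, although 1 CHO-fed animal at 72 h had rno-miR-181a at 11.90.

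At 24 h the difference could be followed in untreated, saline, and AM21 animals of both diets. rno-miR-181a ranged over the 18 animals from 11.66 to 12.63 log2 CPM at 0 h, with a median of 12.18, and from 11.16 to 11.89 at 24 h, with a median of 11.67. Its log2 difference was -0.69 and -0.51 in untreated CHO-fed and EtOH-fed animals, -0.53 and -0.43 in saline animals, and -0.35 and -0.46 in AM21 animals. In EtOH-fed animals single animals weighed on these values, with -0.23 without saline replicate 2 at 24 h and -0.25 without AM21 replicate 2 at 0 h. The averaged difference over the 6 pairs of groups was -0.50 (SE 0.08), against a median of 0.05 for all miRNAs. The groups did not overlap in 5 of the 6 pairs, a pattern that 6.99% to 14% of the 143 miRNAs had in a given pair. The exception was EtOH with AM21, with 11.77, 12.57, and 12.09 log2 CPM at 0 h and 11.67, 11.83, and 11.55 at 24 h.

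rno-miR-139-5p was less even across treatments. Over the 18 animals it ranged from 9.15 to 9.93 log2 CPM at 0 h and from 8.72 to 9.36 at 24 h, with medians of 9.47 and 9.09. The log2 difference was -0.53 and -0.52 in untreated CHO-fed and EtOH-fed animals and -0.47 and -0.45 in AM21 animals, but -0.13 and -0.03 in saline animals, all with an SE of 0.17. The saline differences did not keep their sign, with 0.04 in CHO-fed animals when the log10 total count was in the model and 0.06 in EtOH-fed animals without replicate 1 at 24 h. Without AM21 replicate 2 at 0 h, the difference in EtOH-fed AM21 animals was -0.27. EtOH-fed saline animals measured 9.18, 9.24, and 9.15 at 0 h and 8.97, 9.20, and 9.31 at 24 h. The groups did not overlap in 2 of the 6 pairs, untreated EtOH-fed and AM21-treated CHO-fed animals. Lack of overlap with the later group lower was found for 14% of the 143 miRNAs in CHO-fed saline animals, for 13.3% in CHO-fed AM21 animals, and for 12.6% in each of the treated EtOH-fed pairs. Averaged over the 6 pairs, the difference of rno-miR-139-5p was -0.36 (SE 0.07).

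**Figure D3:**
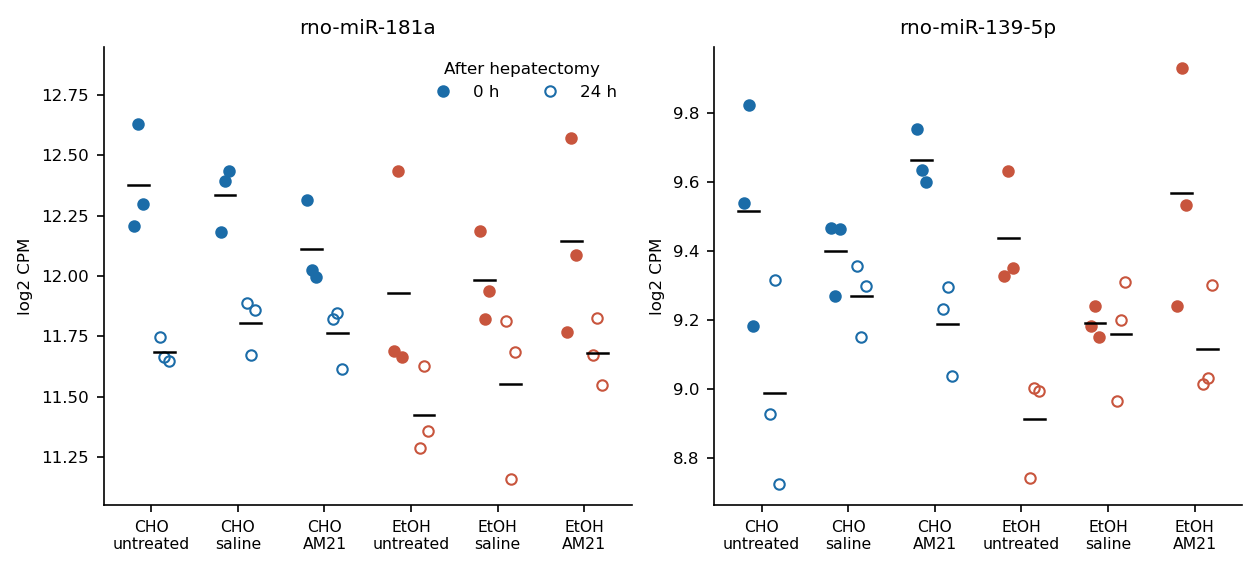
Level in log2 CPM (vertical axes) of rno-miR-181a (left) and rno-miR-139-5p (right) in untreated, saline, and AM21 animals of both diets at 0 h (filled points) and 24 h (open points). Points are animals and bars are means of 3. The 24 h mean is below the 0 h mean in all 6 pairs for both miRNAs, with a difference of -0.03 on the log2 scale for rno-miR-139-5p in EtOH-fed saline animals.

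Diet was the comparison in which a test called one of the pair. Tests were made with limma, a linear model over all 143 miRNAs that moderates each spread, and a difference was called at an adjusted p under 0.05. The EtOH diet went with a lower level of rno-miR-181a when all 8 pairs of groups were averaged. The log2 difference, EtOH minus CHO, was -0.29 (SE 0.07, limma adjusted p = 0.00249), which is 0.82 times the CHO level with a 95% confidence interval of 0.74 to 0.90. The same comparison called 30.1% of the 143 miRNAs. The EtOH mean was lower in 7 of the 8 pairs, with differences from -0.54 in untreated animals at 72 h to 0.03 in AM21 animals at 0 h, and EtOH-fed animals lay wholly below CHO-fed animals in 3 pairs, untreated animals at 6, 24, and 72 h. That separation was found for 9.09%, 9.79%, and 5.59% of the 143 miRNAs in those 3 pairs, for 9.09% in untreated animals at 0 h, for 13.3% and 4.2% in saline animals at 0 and 24 h, and for 6.99% and 9.79% in AM21 animals. The difference at 72 h was -0.35 without replicate 4_8 of the CHO-fed animals, and it was not called with or without that animal. In the 4 numbered sets of animals, the difference was -0.29, -0.13, and -0.26 in sets 1 to 3. It was -0.47 in set 4, which held only the untreated animals at 6 and 72 h.

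Total count also differed between the diets at 0 h, with 92245 to 240355 in 9 EtOH-fed animals and 58168 to 171780 in 9 CHO-fed animals. With the log10 total count in the model, the difference over all 8 pairs was -0.19 and was no longer called (limma adjusted p = 0.0802), and that comparison then called 20 miRNAs in place of 43. Under the 6 other settings tried and without any single animal the call was made, with adjusted p between 0.000457 and 0.00509. The part of total count in the diet difference was not tested separately.

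rno-miR-139-5p had lower EtOH means in all 8 pairs, by a log2 difference of -0.23 to -0.07, but the average of -0.13 (SE 0.06, 95% confidence interval -0.26 to -0.01) was not called (limma adjusted p = 0.091). With scaling to the total count, in place of the trimmed mean (TMM) that made the deposited values, it was -0.23 (adjusted p = 0.0134), and with the log10 total count in the model it was -0.003 (adjusted p = 0.96). It was called without replicate 2 of the EtOH-fed AM21 group at 0 h (-0.16, adjusted p = 0.0409) or without replicate 3 of the untreated CHO-fed group at 0 h (-0.15, adjusted p = 0.0435). Its differences within the 4 sets were -0.30, -0.08, 0.06, and -0.21.

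On the deposited values, no diet difference at a single time point was called for either miRNA by limma. At 0 h over the 3 treatments, the log2 difference of rno-miR-181a was -0.26 (95% confidence interval -0.49 to -0.03, adjusted p = 0.104) in a comparison that called 18.2% of the miRNAs, and at 24 h it was -0.20 (-0.43 to 0.03, adjusted p = 0.322), where 2.8% were called. In untreated animals, the difference of rno-miR-181a at 0, 6, 24, and 72 h was -0.45, -0.40, -0.26, and -0.54, with adjusted p of 0.219, 0.566, 0.66, and 0.304. These comparisons called 2.1%, 0.699%, 3.5%, and 0% of the miRNAs. At 72 h, 12 miRNAs had an unadjusted p under 0.05 by limma, rno-miR-181a among them, and its difference ranked 5 from the lowest of 143. For rno-miR-139-5p the differences at single times lay between -0.23 and -0.08, and every interval included 0. For rno-miR-181a at 0 h over the 3 treatments, removal of 1 animal was enough for a call. Without replicate 2 of the untreated EtOH-fed group the difference was -0.34 (adjusted p = 0.0221), and without replicate 2 of the EtOH-fed AM21 group it was -0.33 (adjusted p = 0.0373). Without the first of these animals the difference in untreated animals alone was -0.70 (adjusted p = 0.0288).

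The diet difference at 0 h depended on how total count was treated. With scaling to the total count, both miRNAs were called over the 3 treatments, at -0.49 for rno-miR-181a (limma adjusted p = 0.00547) and -0.36 for rno-miR-139-5p (adjusted p = 0.0188), while the median of all 143 miRNAs moved from -0.04 to -0.28. With the log10 total count in the model, the difference was -0.08 for rno-miR-181a (adjusted p = 0.769) and turned to 0.10 for rno-miR-139-5p (adjusted p = 0.531). In untreated animals rno-miR-139-5p was then at 0.18 at 0 h and at 0.05 at 24 h, neither called.

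**Figure D4:**
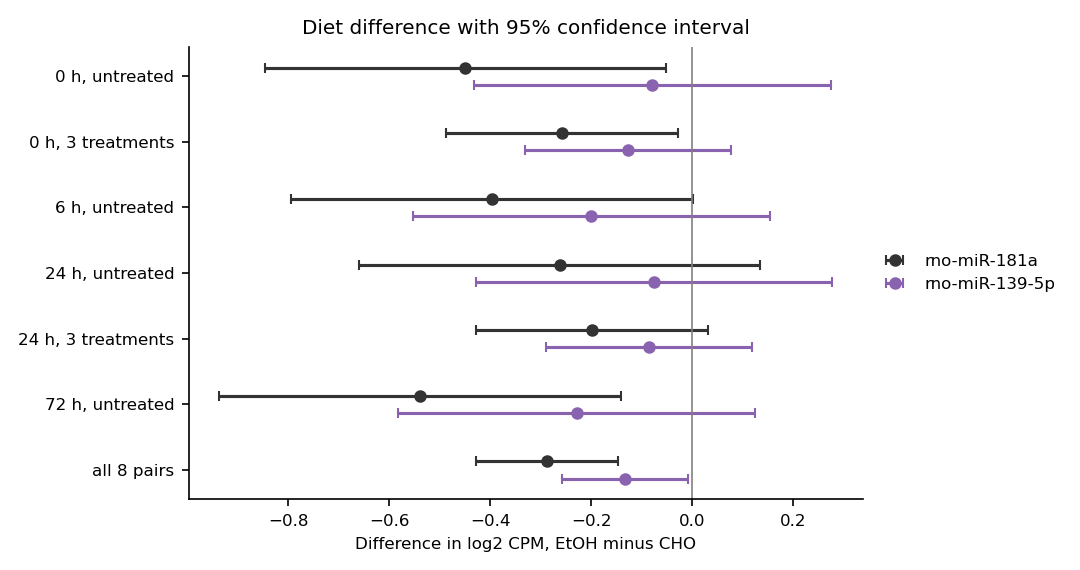
Difference in log2 CPM, EtOH minus CHO (horizontal axis), for rno-miR-181a and rno-miR-139-5p at each time point and over all 8 pairs of groups. Points are limma estimates and bars are 95% confidence intervals. All points lie below 0, and the averaged difference is -0.29 for rno-miR-181a and -0.13 for rno-miR-139-5p.

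Whether the diets differed in the course after PHx was tested as the difference of differences from 0 h in untreated animals. At 6, 24, and 72 h it was 0.05, 0.19, and -0.09 on the log2 scale for rno-miR-181a, and for rno-miR-139-5p it was -0.12, 0.00, and -0.15. None was called by limma, with adjusted p between 0.983 and 0.993. These comparisons called 0% of the miRNAs, with 4, 5, and 10 at an unadjusted p under 0.05. The intervals were wide. At 72 h they ran from -0.65 to 0.47 for rno-miR-181a and from -0.65 to 0.35 for rno-miR-139-5p.

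Inhibition of miR-21 called neither miRNA. The comparison set AM21 animals of both diets against the average of the untreated and saline groups. For rno-miR-181a the log2 difference was -0.03 at 0 h (95% confidence interval -0.27 to 0.21, adjusted p = 0.901) and 0.11 at 24 h (-0.14 to 0.35, adjusted p = 0.682). For rno-miR-139-5p it was 0.23 at 0 h (0.01 to 0.45, adjusted p = 0.304) and 0.07 at 24 h (-0.15 to 0.29, adjusted p = 0.775). Both comparisons called 4.2% of the miRNAs by limma.

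At 0 h the AM21 animals measured 9.75, 9.63, and 9.60 log2 CPM of rno-miR-139-5p on the CHO diet and 9.24, 9.93, and 9.53 on the EtOH diet. CHO-fed controls measured 9.54, 9.82, and 9.18 untreated and 9.47, 9.27, and 9.46 with saline. EtOH-fed controls measured 9.33, 9.63, and 9.35 untreated and 9.18, 9.24, and 9.15 with saline. On the CHO diet the AM21 animals lay above all saline animals, and on the EtOH diet the lowest AM21 and the highest saline animal were both at 9.24. AM21 and untreated animals overlapped on both diets. The difference at 0 h was 0.14 against untreated animals alone (limma adjusted p = 0.64) and 0.32 against saline animals alone (adjusted p = 0.162). Against both controls and with the log10 total count in the model, it was 0.37 and was called (limma adjusted p = 0.00381). With scaling to the total count it was 0.11 (adjusted p = 0.749). The difference of the AM21 effect between 24 and 0 h was 0.13 for rno-miR-181a and -0.16 for rno-miR-139-5p, neither called (adjusted p = 0.998 for both), where 0.699% of the miRNAs were.

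The saline injection gave no call for the pair either. For rno-miR-181a the log2 difference, saline minus untreated, was 0.01 at 0 h and 0.12 at 24 h, with intervals of -0.28 to 0.29 and -0.16 to 0.41. For rno-miR-139-5p it was -0.18 at 0 h (-0.43 to 0.07, limma adjusted p = 0.976) and 0.26 at 24 h (0.01 to 0.51, adjusted p = 0.881). These comparisons called 0.699% and 0% of the miRNAs, and 6 had an unadjusted p under 0.05 at 24 h. The saline values of rno-miR-139-5p at 24 h were 9.36, 9.15, and 9.30 on the CHO diet and 8.97, 9.20, and 9.31 on the EtOH diet.

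Over all 16 groups, the mean of rno-miR-181a spanned 1.72 on the log2 scale, from 12.71 in CHO-fed animals at 6 h to 10.98 in EtOH-fed animals at 72 h. The next in order below the highest were CHO-fed untreated and saline animals at 0 h, at 12.38 and 12.34, and EtOH-fed animals at 6 h, at 12.31. All 6 group means at 24 h lay below all 6 at 0 h. Of the 15 neighbouring pairs in this order, 14 overlapped, and only the lowest group stood clear of its neighbour, untreated EtOH-fed animals at 24 h with a mean of 11.42.

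rno-miR-139-5p spanned 1.13 on the log2 scale, from 9.78 to 8.66, and the same groups were highest and lowest. AM21 animals of the CHO diet at 0 h came second with 9.66. All 15 neighbouring pairs overlapped, so the order between them is not resolved beyond the spread of the animals. At 0 h the saline means of 9.40 and 9.19 were the lowest of either diet, and the second of these lay below the CHO-fed saline animals at 24 h, at 9.27.

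The pair had similar patterns. Over the 16 group means, rno-miR-139-5p was the second most like rno-miR-181a of the other miRNAs by Pearson's r (0.93), and rno-miR-181a was the most like rno-miR-139-5p. Over the 48 animals r was 0.85, and over deviations from the group means it was 0.52. The animals share libraries and scaling, and total count moved with both, so these correlations describe the data and carry no test.

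**Figure D5:**
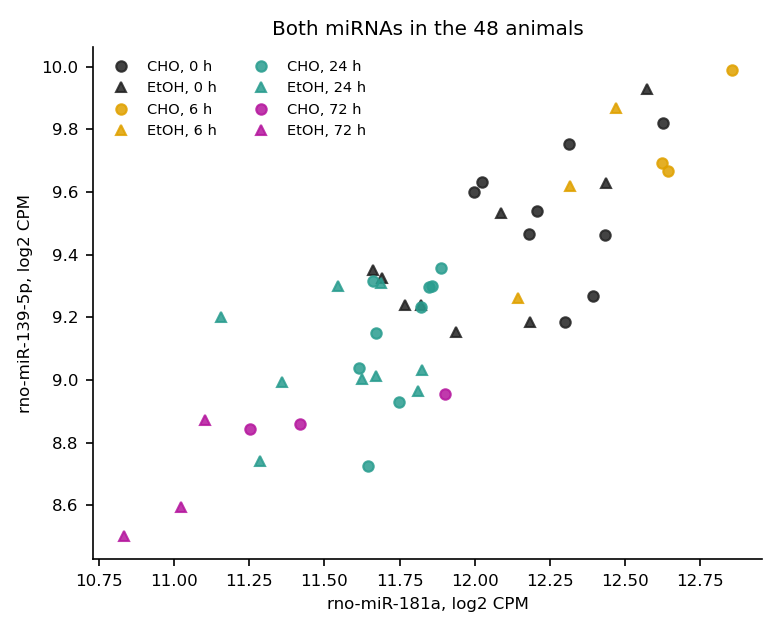
Level of rno-miR-139-5p against that of rno-miR-181a, both in log2 CPM, in the 48 animals. Colors mark the time after PHx and symbols the diet. The animals run from the 72 h group at low levels of both to the 6 h and 0 h groups at high levels of both, with r of 0.85 over all animals.

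The other miRNAs most like rno-miR-181a over the 16 means were rno-miR-150 (r = 0.94), a miRNA of mature lymphocytes, rno-miR-145 (0.92), a miRNA of smooth muscle and other mesenchymal cells, rno-miR-326 (0.89), and rno-miR-100 (0.87), of the miR-99/100 family. The same 4 came after rno-miR-181a for rno-miR-139-5p, with r of 0.90 for rno-miR-150, 0.89 for rno-miR-100, 0.88 for rno-miR-326, and 0.83 for rno-miR-145. Their log2 differences at 72 h, averaged over diets, were -0.70 for rno-miR-150, -0.73 for rno-miR-145, -0.75 for rno-miR-326, and -0.48 for rno-miR-100. As likeness to the pair was measured over the same group means, lower levels at 72 h come with that choice and are given without a test. Likeness within groups was another matter, and it differed between the pair. Deviations from the group means correlated with those of rno-miR-139-5p at r = 0.64 for rno-miR-326 and 0.21 for rno-miR-150. For rno-miR-100 and rno-miR-145 that r was -0.06 and -0.22. With rno-miR-181a all 4 stayed positive, at 0.72 for rno-miR-326, 0.67 for rno-miR-150, 0.35 for rno-miR-145, and 0.20 for rno-miR-100. rno-miR-326 also had a within-group correlation with total count of -0.66, whereas rno-miR-100 and rno-miR-145 had 0.20 and 0.18.

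rno-miR-181c, which shares the seed of rno-miR-181a, followed it in part. At 24 h it was lower than at 0 h by a log2 difference of -0.52 over the 6 pairs (SE 0.14, limma adjusted p = 0.002), beside -0.50 for rno-miR-181a. At 6 h, where rno-miR-181a averaged 0.35 above 0 h, rno-miR-181c was at -0.28 (SE 0.24, adjusted p = 0.323). At 72 h its difference was -0.77 in CHO-fed animals (adjusted p = 0.093) and -0.03 in EtOH-fed animals (adjusted p = 0.959). EtOH-fed animals at 72 h measured 8.39, 8.03, and 8.93 log2 CPM of rno-miR-181c, which overlaps the 7.96, 9.02, and 8.45 at 0 h. The difference between diets in that course was 0.75 (95% confidence interval -0.21 to 1.70, adjusted p = 0.962), and it was not called. The probe gave 19 to 98 counts and a within-group SD of 0.43. Its likeness to rno-miR-181a over the 16 means was 0.56, which ranked 27.

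The study took published miRNA signatures of liver cells and listed those members that it matched to its own data. Both miRNAs are among the 30 so matched from a signature of liver sinusoidal endothelial cells, and rno-miR-181a is also among the 23 matched from a signature reduced in activated hepatic stellate cells. The study's own gene set enrichment was not repeated here. It reported miRNAs raised in activated stellate cells as enriched by 24 h in both diets. The reduced stellate signature was reported as enriched, with lower levels after PHx, in EtOH-fed animals only. The endothelial signature was not significant in either diet. The counts that follow rest on the matched subsets and not on the whole signatures. Of the 23 other endothelial-list miRNAs in the table, 4 rose and 4 fell at 72 h averaged over diets and 15 were not called, where 19.6% of all 143 were called higher and 16.8% lower. The leading calls were rno-miR-16, which restrains the cell cycle and rose by 1.31, rno-miR-145, and rno-miR-10a-5p and rno-miR-150, which both fell by 0.70. The summed level of the 23 was 56215 to 64277 CPM in untreated animals at 0 h and 71520 to 85063 CPM at 72 h. At 24 h over the 6 pairs, 7 rose, 9 fell, and 7 were not called, beside 32.2% and 22.4% of all miRNAs. Of the 20 others on the stellate list, 3 rose and 4 fell at 72 h. Its leading call was again rno-miR-16, which rose by 1.31 (limma adjusted p = 1.67e-09). Among those that fell were rno-miR-29a, which restrains collagen genes, at -0.50 (adjusted p = 0.000354) and rno-miR-30c at -0.59 (adjusted p = 0.0014). Of 14 miRNAs in the table that were listed as raised in activated stellate cells, 4 rose and 2 fell, among them rno-miR-132, which rose by 0.89, and rno-miR-22, which fell by 0.75. At 24 h over the 6 pairs, 6 of the 20 rose, 6 fell, and 8 were not called, and of the 14 raised ones 7 rose, 3 fell, and 4 were not called. The median differences of the endothelial list and the reduced stellate list without the pair were 0.04 and 0.02 at 72 h, beside 0.03 for all 143 miRNAs. At 24 h these medians were -0.03 and -0.09, beside 0.05 for all, and that of the 14 raised ones was 0.14.

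Markers of single cell types moved in different directions at 72 h. The general endothelial marker rno-miR-126 differed from 0 h by -0.06 (limma adjusted p = 0.821). Of 4 leukocyte miRNAs measured, rno-miR-150 fell and rno-miR-223 of myeloid cells rose by 0.47 (adjusted p = 0.0355), and rno-miR-142-3p and rno-miR-342-3p were not called. The summed level of these 4 was 2849 to 4183 CPM in the 6 untreated animals at 0 h and 3131 to 3967 CPM at 72 h. Among 4 mesenchymal miRNAs, rno-miR-145 fell and rno-miR-199a-5p rose by 0.43 (adjusted p = 0.0145). Their sum was 17403 to 22276 CPM at 0 h and 12836 to 21613 CPM at 72 h. Both red blood cell miRNAs fell, rno-miR-451 by 1.31 and rno-miR-144 by 1.16, with a sum of 1306 to 3791 CPM at 0 h and 550 to 1898 CPM at 72 h. The hepatocyte miRNA rno-miR-122 rose by 0.38 (adjusted p = 0.0325), with the sum of the 3 hepatocyte miRNAs at 366272 to 672603 CPM at 0 h and 576072 to 785173 CPM at 72 h. No defining marker was at 0, and the part of cell makeup in the levels of rno-miR-181a and rno-miR-139-5p was not tested.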

How the data were processed

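Liver RNA of 48 rats was counted on the NanoString nCounter against 420 rat miRNAs. The authors scaled the counts by TMM and applied voom, and deposited 1 table of log2 CPM for 143 miRNAs. Whole counts were recovered from the voom offset of 0.5, all within 0.001 of a whole number. Levels are relative to that scaling and not absolute, so a shift common to most miRNAs would be removed. The deposited log2 CPM were fitted with limma 3.58.1 in R 4.3.3 (lmFit, eBayes) with 1 mean per group, a shared spread and no filter, with Benjamini-Hochberg adjustment over 143 miRNAs and calls under an adjusted p of 0.05. Groups came from the labels. Whether the 3 animals of a group came from separate litters or runs is not given in the sources used here, so p-values measure the spread between these animals.

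The members and lists were chosen with earlier results of these data known. Named were the 2 members, other miR-181 probes, miR-21, the 5 miRNAs with the highest Pearson's r over 16 group means for each member, and up to 4 of each list with the smallest adjusted p at 72 h. The lists for endothelial and stellate cells came from the study, the others from general knowledge. Steps were tested on simulated data. Alternatives were voom weights, robust eBayes, scaling by RLE, by total count or by the 100 highest probes, a minimum of 50 counts in 3 or more animals (which kept 138 miRNAs), log10 total count as a covariate, the replicate number as a block, only the groups compared, other AM21 controls, and each animal left out. Sequences came from RefSeq (GRCr8). Figures used matplotlib 3.10.9.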

Additional observations from a re-analysis of the deposited data

How the results depend on the processing

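Across 54 results and 1172 alternative values for the 2 miRNAs, 1101 kept their direction and side of the threshold, or moved by less than the within-group SD, and no value that turned its sign was called. Depth limits rno-miR-139-5p most, at 57 to 151 counts. Animals with the same replicate number did not all deviate together (r from -0.16 to 0.42 between 24 and 0 h). Of those 18 animal pairs, 12 had an r over 0.1. Between the diets, 4 of 9 animal pairs did so at 0 h and 6 of 9 at 24 h. The highest r between the diets was 0.79, in a pair at 0 h, where the median was 0.08 and the lowest -0.13. The replicate number was a block only in comparisons among 0 and 24 h groups, so not in the diet difference over all 8 pairs. Each of those groups held an animal of every number, so the block could alter the spread but not an estimate. Of its 34 values, some were untested changes from 0 h. No tested value changed its call, for example -0.258 for miR-181a between diets at 0 h over the 3 treatments (limma adjusted p = 0.101). The causes of the shifts that follow were not tested.

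With the log10 total count as a covariate, the diet difference of miR-181a over all 8 pairs was -0.186 and not called. Its AM21 difference at 0 h was then 0.078, its diet by time difference at 6 h -0.038, and its change at 72 h -0.503 in CHO-fed animals and -0.615 over both diets. For miR-139-5p the diet difference was then 0.102 at 0 h over the 3 treatments and 0.182 and 0.047 in untreated animals at 0 and 24 h. Its AM21 difference at 0 h was 0.367 and called, its diet by time difference at 24 h -0.135, and its change -0.284 at 24 h and -0.177 at 72 h in CHO-fed animals, -0.501 at 72 h in EtOH-fed animals and -0.339 at 72 h over both diets.

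Total count scaling moved the median of all 143 miRNAs from -0.043 to -0.277 for the diets at 0 h and from 0.032 to -0.200 at 72 h, and part of each shift below is common to all miRNAs. Under it the diet difference at 0 h over the 3 treatments was -0.492 for miR-181a and -0.361 for miR-139-5p, both called, and that of miR-139-5p over all 8 pairs was -0.227 and called. The changes of miR-181a in CHO-fed animals were -0.952 at 24 h and -1.159 at 72 h, and -0.865 with saline and -0.660 with AM21, and its diet by time difference at 72 h was 0.054. The changes of miR-139-5p in CHO-fed animals were -0.784 at 24 h untreated, -0.784 with AM21, -0.464 with saline and -0.933 at 72 h, with -0.937 over both diets, and its diet by time difference at 6 h was 0.020. With the 100 highest probes, the AM21 difference of miR-181a at 0 h was 0.018 and the diet difference of miR-139-5p over all 8 pairs -0.172, the latter called. RLE size factors gave -0.046 for the diet by time difference of miR-139-5p at 24 h. Against saline animals alone its AM21 difference at 24 h was -0.062, and against untreated animals alone its AM21 by time difference was 0.061.

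Leaving out each animal in turn gave these ranges for miR-181a: -0.342 to -0.195 and -0.703 to -0.316 for the diet at 0 h over the 3 treatments and in untreated animals, -0.137 to 0.064 for AM21 and -0.062 to 0.132 for saline at 0 h, and -0.081 to 0.307 and -0.226 to 0.164 for diet by time at 6 and 72 h. Its diet difference at 72 h was -0.675 to -0.351. Its changes at 24 h in EtOH-fed animals were -0.561 to -0.233 with saline and -0.649 to -0.247 with AM21. Its changes in untreated EtOH-fed animals were 0.247 to 0.635, -0.640 to -0.253 and -1.079 to -0.692 at 6, 24, and 72 h. For miR-139-5p the diet difference was -0.245 to 0.074 and -0.209 to 0.087 in untreated animals at 0 and 24 h and -0.157 to -0.113 over all 8 pairs, and diet by time was -0.274 to 0.045, -0.150 to 0.169 and -0.303 to 0.016 at 6, 24, and 72 h. Of the miRNAs named as most like miR-181a and miR-139-5p, 2 and 1 of 5 kept that place when deviations from the group means were compared.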
